A study of Mus musculus with 21 samples.

Results

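Old hematopoietic stem cells (HSCs) were compared with HSCs of young mice that had gone through 3 rounds of the cytotoxic drug 5-fluorouracil (5-FU). The comparison comprised 6 RNA-seq libraries of a series of 21, chosen by their labels as the 3 libraries of old HSCs and the 3 libraries of HSCs isolated on day 21 after the third 5-FU administration. Results are given for autosomal genes. The question addressed was which transcripts of old HSCs differ from those of HSCs after repeated 5-FU, and which are found in both.

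HSCs sit at the top of the blood hierarchy and are mostly quiescent in the adult marrow. 5-FU kills cycling progenitors and drives the surviving HSCs into division, after which the marrow is rebuilt and HSCs return towards quiescence. Old HSCs are known to be more numerous but to produce fewer lymphocytes, with raised transcripts of megakaryocyte, platelet and adhesion genes. Repeated division under stress is among the conditions used to model aging of HSCs, which makes the comparison with natural age informative.

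All mice were wild type. Old HSCs came from untreated mice aged 2 years and were collected separately from the other samples. The 5-FU-3 d21 HSCs came from mice first treated at 10 weeks of age with 5-FU at 150 mg/kg, 3 times at intervals of 21 days. Controls were HSCs isolated on day 6 after the first (PBS-1 d6) or the third (PBS-3 d6) administration of PBS, with 3 libraries each. The PBS mice were likewise first treated at 10 weeks of age, and repeated administrations were 21 days apart. No PBS-treated group of day 21 was included, so treatment and the day of isolation cannot be told apart in comparisons of 5-FU-3 d21 with PBS-3 d6. Against PBS-1 d6, the number of administrations and the age at isolation also cannot be told apart from treatment. The study's methods define HSCs of C57BL/6 mice as CD150+ CD48- Flt3- bone marrow cells within the Lineage- Sca-1+ c-Kit+ gate, and each library was made from 3000 to 3500 cells. The PBS-1 d6 columns carry a suffix whose meaning is not given, so values for the PBS groups are given separately.

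Total counts ranged from 23507025 to 34857534 in old and from 25285301 to 26745138 in 5-FU-3 d21 HSCs, against 22184885 to 38649033 over all 21 libraries. Levels are given as normalized counts, that is counts divided by a size factor with a mean of 1 over the 21 libraries. On this scale a signal of 3 counts, taken as the floor of a library, lay between 2.44 and 3.69, and covers counting error only. Of the genes on the Y chromosome, 4 (Ddx3y, Eif2s3y, Kdm5d and Uty) had a count of 0 in all 3 old libraries and between 198 and 4821 counts in the other 18 libraries. Age, treatment, separate collection and sex therefore cannot be told apart between old HSCs and the other groups. Transcripts of Procr, Meis1 and Slamf1, which are 3 of the HSC-defining genes, were present in all 6 libraries. Meis1 was named after its values were seen, and values of the defining genes Mecom and Hlf are not given. The 3 genes do not stand for all 36 HSC identity genes tested, of which 66.7% had a negative log2 fold change in old against 5-FU-3 d21 HSCs. Procr, which encodes the HSC surface receptor EPCR, had 845, 758 and 848 normalized counts in old HSCs and 814, 778 and 818 in 5-FU-3 d21 HSCs. The transcription factor gene Meis1 had 14099 to 15222 and 14003 to 14941 normalized counts, and Slamf1, encoding CD150, 1316 to 1772 and 1172 to 1528. The groups overlapped for all 3 genes (edgeR adjusted p = 0.953, 0.997 and 0.626). Ly6a, another defining gene, did not overlap between the groups and is described below with Kit. Cd48, which was selected against, had 59.9 to 143 normalized counts in old and 38.9 to 209 in 5-FU-3 d21 HSCs.

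In the direct comparison, 274 of 12253 autosomal genes tested differed between old and 5-FU-3 d21 HSCs (2.24%, adjusted p under 0.05 in the quasi-likelihood F test of edgeR). Of these, 199 were higher in old HSCs (1.62%) and 75 were lower (0.612%). The median log2 fold change was 1.39 over the genes higher in old HSCs and -0.74 over those lower, against -0.00 over all genes tested. The genes higher in old HSCs had medians of 760 normalized counts in old and 242 in 5-FU-3 d21 HSCs. Those lower had 848 and 1937, and the median over all genes tested was 701. No count in any 5-FU-3 d21 library was found for 17 of the genes higher, and none of the 75 lower was at 0 in all old libraries. A gene at 0 in 1 group passes the filter on low expression only through the other group. The 17 were therefore tested only through their counts in old HSCs. With at least 10 counts in every library, 196 genes were higher and 93 lower. Leaving out any one of the 6 libraries reduced the 274 genes called to between 58 (without old replicate 2) and 171 (without 5-FU-3 d21 replicate 2). The old and 5-FU-3 d21 libraries did not overlap for 2648 genes (21.6%), of which 1387 were higher (11.3%) and 1261 lower (10.3%) in old HSCs. The number called was 945 with DESeq2, and 1881 genes had an unadjusted p under 0.05.

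**Figure D1:**
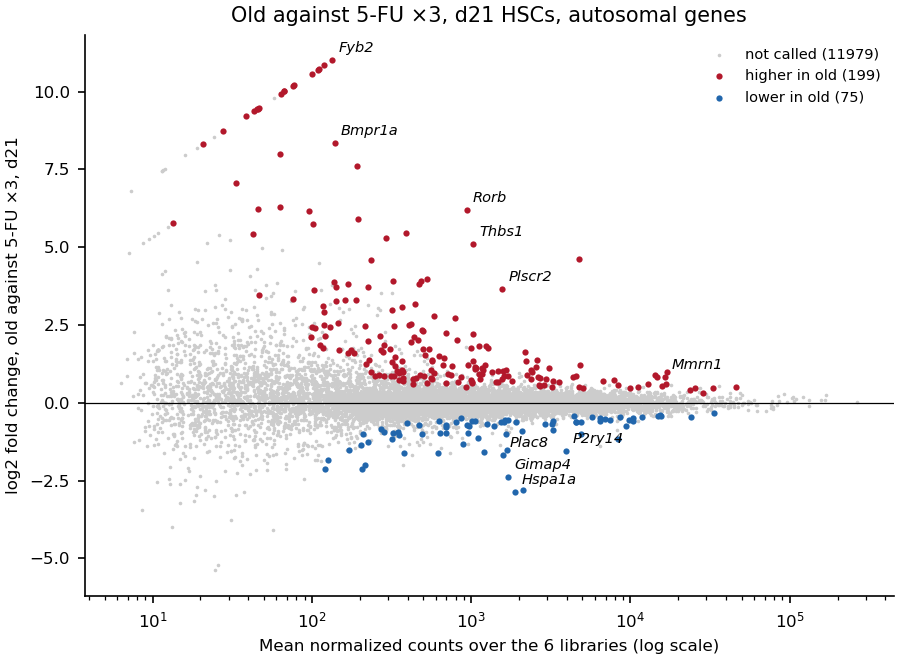
Each point is one of 12253 autosomal genes, plotted by its mean normalized counts over the 6 libraries (x axis, log scale) and its log2 fold change of old against 5-FU-3 d21 HSCs (y axis). Red points are the 199 genes called higher and blue points the 75 called lower in old HSCs. The genes higher in old HSCs extend to larger fold changes than those lower, and the straight upper edge holds genes with no count in 5-FU-3 d21 HSCs, whose fitted fold changes are not bounds.

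Among the gene lists, genes widely described as raised in aged mouse HSCs had the largest share of calls. The lists were chosen with earlier results of these data known, so this ranking is not independent of the data. Of 46 genes listed, 45 were autosomal, and 3 of these (Clca1 and the cell cycle inhibitor genes Cdkn2a and Cdkn2b) had a count of 0 in all 6 libraries and were not tested. Among the 42 tested, 22 were higher in old than in 5-FU-3 d21 HSCs (52.4%, against 1.62% of all genes called in that direction), none was lower, and 40 had a positive log2 fold change. The median log2 fold change of the list was 0.88. Of the 22 genes, 11 (Clu, Aldh1a1, Sult1a1, Clec1a, Plscr2, Rorb, Ptprk, Wwtr1, Kcnip3, Mmrn1 and Cavin2) remained past the threshold under every alternative setting tried. Leaving out 1 library reduced the 22 to between 11 (without old replicate 2) and 17 (without 5-FU-3 d21 replicate 3).

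Rorb, which encodes an orphan nuclear receptor, showed the largest difference among these genes. It had 1629, 2446 and 1481 normalized counts in old HSCs, and 40.8, 2.1 and 32.8 in 5-FU-3 d21 HSCs. The groups did not overlap, with a 73.6-fold difference (log2 fold change 6.20, standard error 0.54, edgeR adjusted p = 0.00176). PBS-1 d6 HSCs, at 44.7, 2.14 and 30.7 normalized counts, lay at the low level of the 5-FU-3 d21 HSCs, and PBS-3 d6 HSCs had 237, 136 and 37.8.

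Plscr2, a gene of the phospholipid scramblase family, had 2889, 2940 and 2874 normalized counts in old HSCs and 231, 338 and 120 in 5-FU-3 d21 HSCs. All old libraries exceeded all others, and the difference was 12.6-fold (log2 fold change 3.65, standard error 0.32, edgeR adjusted p = 0.00176). In the controls, Plscr2 had 603, 713 and 583 normalized counts after 3 administrations of PBS and 179, 172 and 181 after 1. Clu, encoding the secreted chaperone clusterin, had 937, 778 and 760 normalized counts in old HSCs, 142, 236 and 120 in 5-FU-3 d21 HSCs and 349, 405 and 519 in PBS-3 d6 HSCs. Old libraries were again the highest and 5-FU-3 d21 libraries the lowest of these 9, with a log2 fold change of 2.31 between old and 5-FU-3 d21 HSCs (standard error 0.25, edgeR adjusted p = 0.00451).

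Wwtr1, which encodes the transcriptional coactivator TAZ, had 1043, 1325 and 706 normalized counts in old HSCs and 116, 163 and 170 in 5-FU-3 d21 HSCs (log2 fold change 2.78, standard error 0.26, edgeR adjusted p = 0.00223). Ptprk, a receptor-type tyrosine phosphatase gene, had 1222, 1138 and 628 against 42.9, 73.5 and 71.3 (log2 fold change 3.99, standard error 0.31, edgeR adjusted p = 0.00132). Neither gene showed any overlap between the groups. The levels of Ptprk in PBS-1 d6 HSCs ranged from 75.6 to 445, and its difference between old and PBS-1 d6 HSCs did not pass the test (log2 fold change 2.23, edgeR adjusted p = 0.127).

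Aldh1a1, encoding a retinaldehyde dehydrogenase, had 20000, 17563 and 17838 normalized counts in old HSCs, 11066, 10123 and 8963 in 5-FU-3 d21 HSCs, 8901, 11998 and 10424 in PBS-3 d6 HSCs and 6615, 5672 and 6193 in PBS-1 d6 HSCs. The old libraries stood 1.83-fold above 5-FU-3 d21 HSCs (log2 fold change 0.88, standard error 0.098, edgeR adjusted p = 0.00509), and 5-FU-3 d21 HSCs overlapped with PBS-3 d6 HSCs. Clec1a, a C-type lectin receptor gene, had the same order. Its levels were 3346, 3531 and 3290 normalized counts in old HSCs, 1856, 1860 and 1978 in 5-FU-3 d21 HSCs, 1935, 2084 and 1796 in PBS-3 d6 HSCs and 1203, 1224 and 1136 in PBS-1 d6 HSCs, with a log2 fold change of 0.83 between old and 5-FU-3 d21 HSCs (standard error 0.09, edgeR adjusted p = 0.00471). Enpp5, a nucleotide pyrophosphatase/phosphodiesterase family gene, had 21115 to 24430 against 10112 to 13214 normalized counts (log2 fold change 0.98, edgeR adjusted p = 0.00596), and Kcnip3, encoding a calcium-binding potassium channel partner, 1896 to 2188 against 1101 to 1215 (log2 fold change 0.87, edgeR adjusted p = 0.00723). Enpp5 lost its call without old replicate 2.

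The other members called higher in old HSCs were Sult1a1, Ehd3, Jam2, Alcam, Gda, Ramp2, Tm4sf1, Gpr183, Cd38 and Klrb1c, besides Vwf, Cavin2 and Mmrn1, which are described with the platelet genes. Sult1a1, a sulfotransferase gene, had 1138, 869 and 945 against 334, 393 and 362 normalized counts (log2 fold change 1.44, standard error 0.13, edgeR adjusted p = 0.00223). Cd38, an NAD-consuming ectoenzyme gene, had 498 to 577 against 157 to 284 (log2 fold change 1.33, edgeR adjusted p = 0.0252), and Gpr183, an oxysterol receptor gene, 161 to 332 against 25.8 to 49.4 (log2 fold change 2.42, edgeR adjusted p = 0.0276). Sult1a1 apart, the calls of the other 9 of these 10 genes were lost in 4 to 6 of the 6 fits that left out 1 library, with old replicate 1 and old replicate 2 among the libraries on which each of them depended. The exons of Ramp2 share 33.4% of their bases with Vps25 on the same strand, so that its reads cannot be assigned with certainty.

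**Figure D2:**
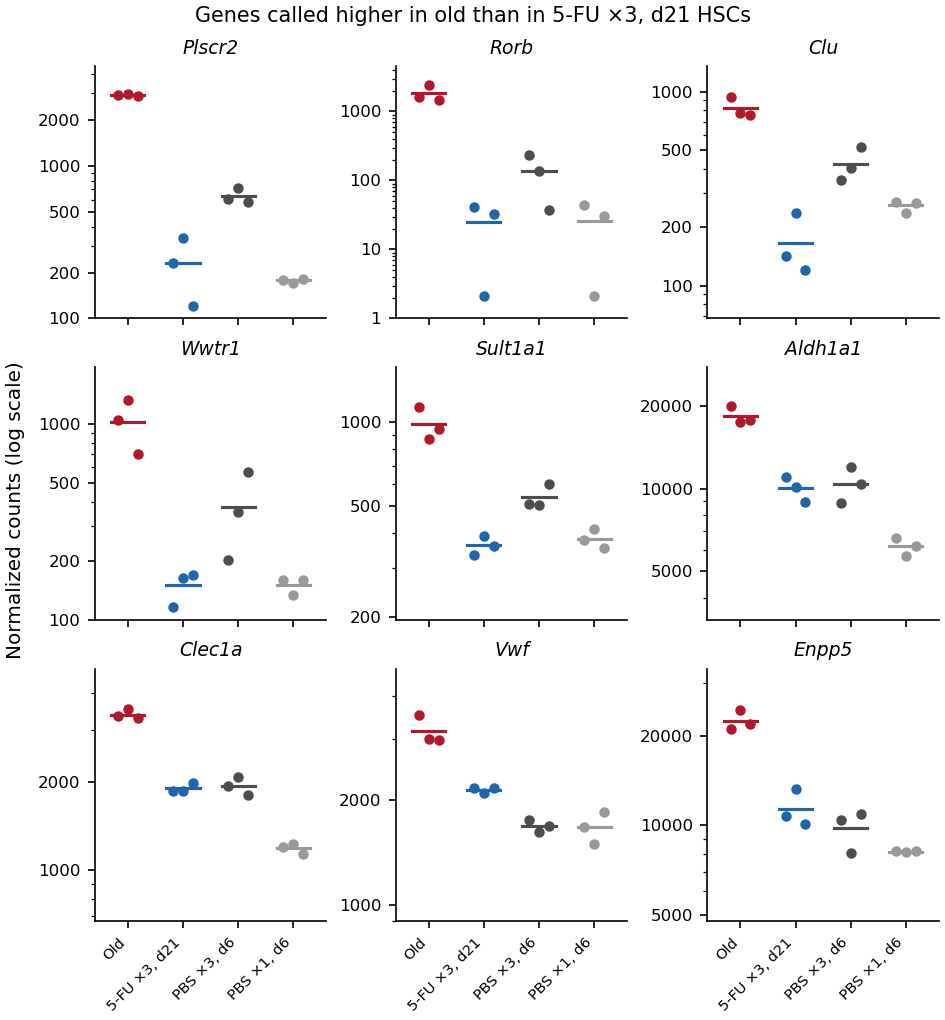
Normalized counts (y axes, log scale) of 9 genes called higher in old than in 5-FU-3 d21 HSCs, in each library of old, 5-FU-3 d21, PBS-3 d6 and PBS-1 d6 HSCs. Points are libraries and lines are means of 3. In each panel the 3 old libraries lie above all libraries of the other groups.

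The other 20 listed genes tested were not called between old and 5-FU-3 d21 HSCs. Selp, which encodes the adhesion receptor P-selectin, had 2211, 1519 and 1729 normalized counts in old HSCs and 1546, 1509 and 1649 in 5-FU-3 d21 HSCs. The groups overlapped (log2 fold change 0.21, standard error 0.14, edgeR adjusted p = 0.555). The controls were lower, at 683, 906 and 969 normalized counts in PBS-3 d6 HSCs and 322, 256 and 277 in PBS-1 d6 HSCs. Selp was higher in old than in PBS-1 d6 HSCs (log2 fold change 2.67, edgeR adjusted p = 0.000353) and in old than in PBS-3 d6 HSCs (1.08, edgeR adjusted p = 0.0411). In 5-FU-3 d21 HSCs it was higher than in PBS-1 d6 HSCs (log2 fold change 2.46, edgeR adjusted p = 0.000772), whereas the difference from PBS-3 d6 HSCs did not pass the test (0.87, standard error 0.14, edgeR adjusted p = 0.0862) although all 3 libraries were above all controls. The annotation places 14.1% of its exonic bases opposite Gm16548 and Gm16587.

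Neo1, encoding the netrin and repulsive guidance molecule receptor neogenin, had 1463, 1578 and 783 normalized counts in old HSCs and 785, 986 and 903 in 5-FU-3 d21 HSCs. The groups overlapped through old replicate 3 (log2 fold change 0.52, standard error 0.24, edgeR adjusted p = 0.37), and all 6 libraries lay above the PBS-3 d6 libraries (277, 311 and 274) and the PBS-1 d6 libraries (235, 271 and 307). Nupr1, a stress-induced chromatin protein gene, had 393 to 498 normalized counts in old, 340 to 381 in 5-FU-3 d21, 245 to 252 in PBS-3 d6 and 185 to 237 in PBS-1 d6 HSCs. Old and 5-FU-3 d21 libraries did not overlap, but Nupr1 was not called between them (log2 fold change 0.27, standard error 0.14, edgeR adjusted p = 0.404) or between 5-FU-3 d21 and PBS-3 d6 HSCs (0.52, edgeR adjusted p = 0.155), and was higher in old than in PBS-1 d6 HSCs (1.05, edgeR adjusted p = 0.019). The metallothionein gene Mt1 had 263 to 335 normalized counts in old against 71.3 to 144 in 5-FU-3 d21 HSCs, which lay just over the threshold (log2 fold change 1.35, edgeR adjusted p = 0.0554). The 2 members with a negative log2 fold change were Fyb, a T cell and platelet adaptor gene, and the AP-1 subunit gene Jun (-0.30 and -0.31, edgeR adjusted p = 0.257 and 0.443). The other 14 members had log2 fold changes from 0.11 (Fosb) to 4.48 (Osmr) and edgeR adjusted p from 0.0767 (Gstm2) to 0.969 (Fosb).

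Which features of old HSCs were also found after repeated 5-FU was examined with comparisons that had no library in common, namely old with PBS-1 d6 HSCs and 5-FU-3 d21 with PBS-3 d6 HSCs. In the first, 231 of 12404 autosomal genes were called (1.86%), with 181 higher (1.46%) and 50 lower (0.403%) in old HSCs. In the second, 6 of 12189 were called (0.0492%), with Gem, Neo1, Arap3, Gimap4 and Plac8 higher (0.041%) and Sgsm1 lower (0.0082%) in 5-FU-3 d21 HSCs. At an unadjusted p under 0.05 there were 1759 and 1669 genes, and DESeq2 called 783 and 575. The split of the second comparison depended on the scaling, since 6 genes were higher and 9 lower with library size alone, in place of 5 and 1. Leaving out 1 library gave 103 (without old replicate 2) to 140 (without old replicate 1 or PBS-1 d6 replicate 1) genes in the first comparison. The second gave 1 (without 5-FU-3 d21 replicate 2, PBS-3 d6 replicate 1 or PBS-3 d6 replicate 3) to 4 (without 5-FU-3 d21 replicate 3).

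Of 12072 genes tested in both, 2 (Gem and Neo1) were called in the same direction, which was 0.922% of the 217 genes called in old HSCs and 33.3% of the 6 called after 5-FU. None was called in opposite directions, and 1 to 2 genes were shared when 1 library was left out. The 170 genes higher in old HSCs had a median log2 fold change of 1.04 against PBS-1 d6 HSCs and of -0.08 in 5-FU-3 d21 against PBS-3 d6 HSCs, where 73 of them were positive. The 47 genes lower in old HSCs had medians of -0.92 and -0.11, and 29 were negative after 5-FU. With DESeq2, 49 genes were called in the same direction and 59 in opposite directions among 750 genes called in old HSCs and 569 called after 5-FU. With the controls exchanged, 119 of 12397 genes (0.96%) were called in old against PBS-3 d6 HSCs, with 69 higher (0.557%) and 50 lower (0.403%), and 80 of 12261 (0.652%) in 5-FU-3 d21 against PBS-1 d6 HSCs, with 38 higher (0.31%) and 42 lower (0.343%). Of the genes tested in both of these, 6 were called in the same direction, namely Aldh1a1, Clec1a, Gem, Neo1 and Selp higher and Mdga1 lower, which was 5.41% of 111 and 7.5% of 80 called, and none was opposite. Of these, Aldh1a1 and Clec1a were not raised over PBS-3 d6 HSCs after 5-FU (log2 fold changes -0.06 and -0.04).

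The old HSC genes were followed across the same comparisons. Of 42 tested, 25 were higher in old than in PBS-1 d6 HSCs, with a median log2 fold change of 1.41. In 5-FU-3 d21 against PBS-3 d6 HSCs, Neo1 was the 1 gene called by edgeR among 41 tested, and the median was -0.29, with 28 of the 41 negative. DESeq2 called 12 of the 41, and 17 had an unadjusted p under 0.05. Of 24 list genes called in old HSCs and tested in both comparisons, 6 had a positive log2 fold change after 5-FU, and their median was -0.33, against 1.55 in old HSCs. With the controls exchanged, 13 of the 42 were higher in old HSCs (median 0.79), and in 5-FU-3 d21 HSCs Selp, Neo1, Aldh1a1 and Clec1a were higher and Mmrn1 was lower (median 0.19), so the sign of the median after 5-FU differed between the control groups.

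**Figure D3:**
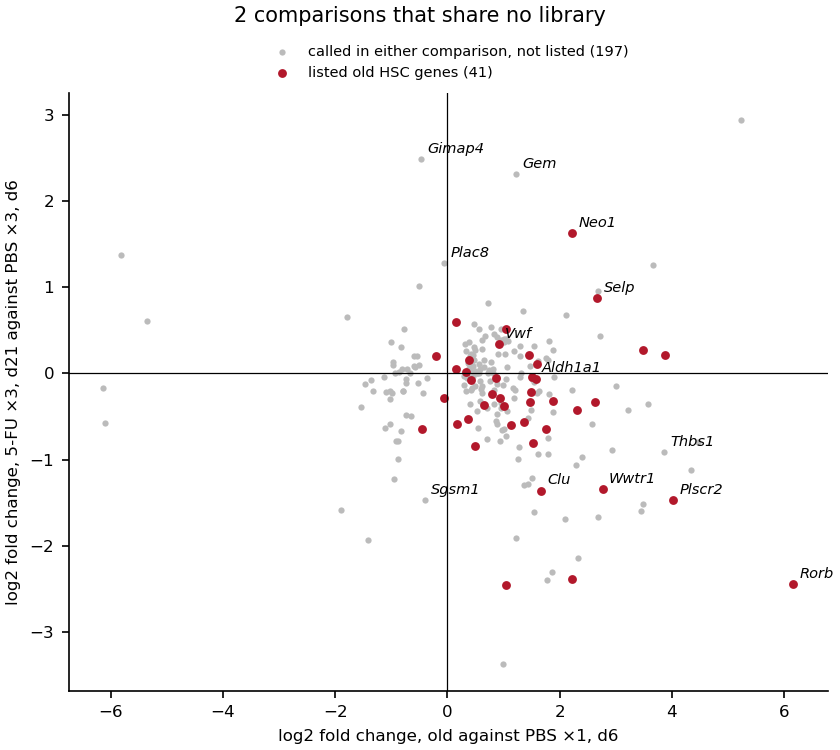
Log2 fold change of old against PBS-1 d6 HSCs (x axis) and of 5-FU-3 d21 against PBS-3 d6 HSCs (y axis), which share no library. Red points are the 41 old HSC genes tested in both, and grey points are the 197 other genes called in either. Most red points lie right of 0, with 13 of 41 above 0 on the y axis and Neo1 and Selp at 1.63 and 0.87.

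Gem, which encodes a small GTPase of the RGK family that acts on calcium channels and the cytoskeleton, had 457, 462 and 379 normalized counts in old HSCs and 627, 600 and 629 in 5-FU-3 d21 HSCs. PBS-3 d6 HSCs had 127, 119 and 128, and PBS-1 d6 HSCs 189, 174 and 192. All libraries of old and of 5-FU-3 d21 HSCs were therefore above all control libraries, and 5-FU-3 d21 was the highest group. The log2 fold change was 1.23 in old against PBS-1 d6 HSCs (standard error 0.14, edgeR adjusted p = 0.00666) and 2.31 in 5-FU-3 d21 against PBS-3 d6 HSCs (standard error 0.11, edgeR adjusted p = 0.00115). Between old and 5-FU-3 d21 HSCs it was -0.52 and did not pass the test (standard error 0.12, edgeR adjusted p = 0.0751). Mdga1, an adhesion molecule gene, was lower in both, with 1572, 1921 and 1741 normalized counts in old and 1908, 2003 and 1831 in 5-FU-3 d21 HSCs against 2838 to 3355 in PBS-3 d6 and 2863 to 3438 in PBS-1 d6 HSCs. Its log2 fold change was -0.82 in old against PBS-1 d6 HSCs (edgeR adjusted p = 0.0138) and -0.67 in 5-FU-3 d21 against PBS-3 d6 HSCs (edgeR adjusted p = 0.0723).

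Genes of the MHC and of antigen presentation, which display peptides to T cells, were examined next. Their median log2 fold change between old and 5-FU-3 d21 HSCs was -0.04 over 24 genes, of which 3 were called lower in old HSCs (12.5%, against 0.612% of all genes called lower) and none higher. Against PBS-1 d6 HSCs, 6 were higher in old and 4 were higher in 5-FU-3 d21 HSCs, with a median of 0.31 in each case. These medians share their controls, and the values of 5-FU-3 d21 against PBS-3 d6 HSCs had a median of 0.20, with 0 called by edgeR, 13 at an unadjusted p under 0.05 and 8 called by DESeq2. H2-Eb1, an MHC class II gene, had 422 to 549 normalized counts in old HSCs, 506 to 579 in 5-FU-3 d21, 290 to 349 in PBS-3 d6 and 180 to 202 in PBS-1 d6 HSCs. Its log2 fold change was 1.34 in old against PBS-1 d6 (edgeR adjusted p = 0.00515) and 0.72 in 5-FU-3 d21 against PBS-3 d6 HSCs (edgeR adjusted p = 0.0862). The class I gene H2-K1 had 51070 to 52026 in old, 50557 to 52986 in 5-FU-3 d21 and 40309 to 44907 in the 6 control libraries. Among the 3 members called, Cd74, the invariant chain of class II, had 3638, 3497 and 4534 against 5822, 5466 and 6579 normalized counts (log2 fold change -0.62, edgeR adjusted p = 0.0499), Ciita, the class II transactivator, 702, 723 and 536 against 1109, 1341 and 1348 (-0.96, edgeR adjusted p = 0.0197), and H2-DMa 3859, 3599 and 3887 against 5261, 5022 and 4989 (-0.43, edgeR adjusted p = 0.04). All 3 were lower in old HSCs without overlap, as were 10.3% of all genes. The calls of Cd74 and Ciita were lost in 5 of the 6 fits without 1 library and that of H2-DMa in all 6.

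Genes called in 5-FU-3 d21 HSCs against PBS-3 d6 HSCs included several for which old HSCs were not called against either control group. Gimap4, a GTPase gene of the immunity-associated family, had 2342, 2486 and 3801 normalized counts in 5-FU-3 d21 HSCs, against 487, 751 and 403 in old, 515, 629 and 384 in PBS-3 d6 and 600, 1003 and 658 in PBS-1 d6 HSCs. The 5-FU-3 d21 libraries stood apart from the 9 others, with a log2 fold change of old against 5-FU-3 d21 HSCs of -2.39 (standard error 0.27, edgeR adjusted p = 0.00552) and of 5-FU-3 d21 against PBS-3 d6 HSCs of 2.49 (standard error 0.25, edgeR adjusted p = 0.0494). Plac8, which encodes a small cysteine-rich protein of myeloid and lymphoid cells, had 2714, 2601 and 1982 normalized counts in 5-FU-3 d21 HSCs and 910, 725 and 635 in old HSCs, with 971 to 1019 in PBS-3 d6 and 713 to 932 in PBS-1 d6 HSCs. The log2 fold change was -1.69 in old against 5-FU-3 d21 HSCs (standard error 0.17, edgeR adjusted p = 0.00373) and 1.28 in 5-FU-3 d21 against PBS-3 d6 HSCs (edgeR adjusted p = 0.0494).

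Sgsm1, a regulator gene of small G proteins, went the other way. It had 777, 743 and 533 normalized counts in 5-FU-3 d21 HSCs, below 1624, 1536 and 1147 in old HSCs, 1784 to 2015 in PBS-3 d6 and 1495 to 2476 in PBS-1 d6 HSCs (log2 fold change of old against 5-FU-3 d21 HSCs 1.07, edgeR adjusted p = 0.0276, lost in 5 of 6 fits without 1 library). Arap3, a GTPase-activating protein gene, had 949 to 1077 normalized counts in 5-FU-3 d21 and 312 to 663 in old HSCs. It was called against PBS-3 d6 HSCs (log2 fold change 1.02, edgeR adjusted p = 0.0272) and not against old HSCs (-1.08, edgeR adjusted p = 0.0709). P2ry14, the UDP-glucose receptor gene, had 5908, 5710 and 6099 normalized counts in 5-FU-3 d21 HSCs and 1880, 2597 and 1579 in old HSCs, with the PBS-3 d6 libraries between them at 3964, 4267 and 2834. Old and 5-FU-3 d21 HSCs differed by a log2 fold change of -1.55 (standard error 0.17, edgeR adjusted p = 0.00546), whereas neither group was called against PBS-3 d6 HSCs.

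**Figure D4:**
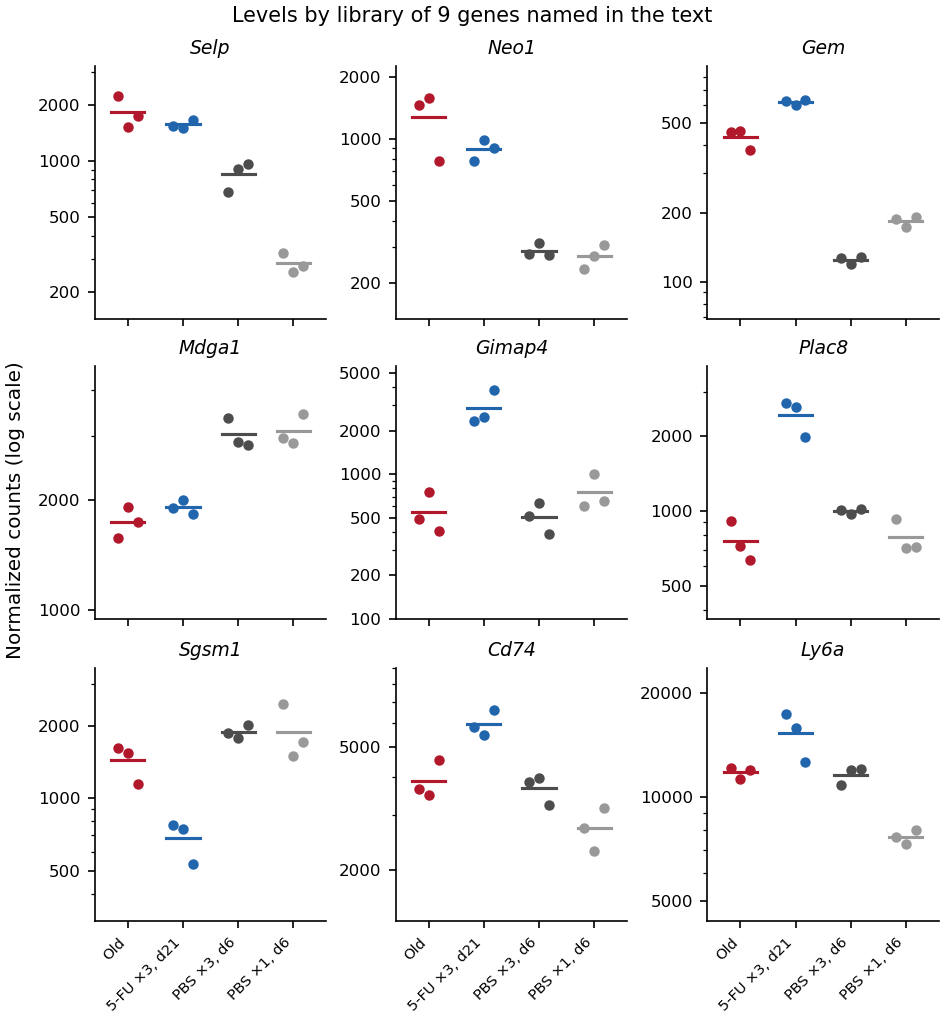
Normalized counts (y axes, log scale) by library for 9 genes in old, 5-FU-3 d21, PBS-3 d6 and PBS-1 d6 HSCs. Points are libraries and lines are means of 3. Old and 5-FU-3 d21 libraries lie on the same side of all 6 control libraries for Selp, Neo1, Gem and Mdga1, whereas the 5-FU-3 d21 libraries stand apart from the other 9 for Gimap4, Plac8, Sgsm1, Cd74 and Ly6a.

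Of 31 megakaryocyte and platelet genes tested, 6 were higher in old than in 5-FU-3 d21 HSCs (19.4%, against 1.62% of all genes), none was lower and the median log2 fold change was 0.29. Vwf, encoding von Willebrand factor, had 3523, 2993 and 2982 normalized counts in old and 2162, 2099 and 2162 in 5-FU-3 d21 HSCs, with 1625 to 1750 in PBS-3 d6 and 1501 to 1848 in PBS-1 d6 HSCs. The 5-FU-3 d21 libraries thus lay between the old and the control libraries. Vwf was higher in old than in 5-FU-3 d21 HSCs (log2 fold change 0.56, edgeR adjusted p = 0.0318, lost in each of the 6 fits without 1 library), and its difference between 5-FU-3 d21 and PBS-3 d6 HSCs was 0.34 (edgeR adjusted p = 0.157).

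For Mmrn1, Trpc6 and Cavin2 the 5-FU-3 d21 libraries were the lowest of the 12. Mmrn1, encoding the platelet protein multimerin, had 21732, 21319 and 20534 normalized counts in old, 11168, 12579 and 11947 in 5-FU-3 d21, 16946 to 18398 in PBS-3 d6 and 18263 to 19093 in PBS-1 d6 HSCs. It differed between old and 5-FU-3 d21 HSCs (log2 fold change 0.83, standard error 0.073, edgeR adjusted p = 0.00176) whereas the differences of old from PBS-1 d6 HSCs (0.17, edgeR adjusted p = 0.209) and of 5-FU-3 d21 from PBS-3 d6 HSCs (-0.59, edgeR adjusted p = 0.0608) did not pass the test. Trpc6, a calcium-permeable channel gene chosen after its values were seen, and Cavin2, a caveolar coat gene, had log2 fold changes of 0.83 and 1.13 (edgeR adjusted p = 0.00552 and 0.00373). Thbs1, encoding the matrix protein thrombospondin 1, had 2065, 1115 and 2834 normalized counts in old HSCs and 50.9 to 64.4 in 5-FU-3 d21 HSCs, with 0 to 238 over the 6 control libraries (log2 fold change of old against 5-FU-3 d21 HSCs 5.09, standard error 0.37, edgeR adjusted p = 0.00116).

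Of 30 lymphoid priming genes tested, 3 were lower and 1 was higher in old than in 5-FU-3 d21 HSCs. Together these were 13.3% of the list, against 2.24% of all genes called in either direction and 0.612% called lower. The log2 fold change was positive for 20% of the list, against 49.4% of all genes tested, with a median of -0.14, and Gimap4 was the 1 member called under every alternative tried. Flt3, the receptor gene of lymphoid-primed progenitors, whose protein was gated out by the sort, had 307, 317 and 360 normalized counts in old and 585, 751 and 637 in 5-FU-3 d21 HSCs, with 709 to 858 in PBS-3 d6 and 643 to 705 in PBS-1 d6 HSCs. The 3 young groups lay on one side and old HSCs on the other (log2 fold change of old against 5-FU-3 d21 HSCs -1.01, standard error 0.14, edgeR adjusted p = 0.0128). Against PBS-1 d6 HSCs, Flt3 was lower in old HSCs (-1.02, edgeR adjusted p = 0.00548), and the call between old and 5-FU-3 d21 HSCs was lost without old replicate 1 or 2. In 5-FU-3 d21 against PBS-3 d6 HSCs Flt3 did not pass the test (-0.21, edgeR adjusted p = 0.538). Runx3, a lymphoid transcription factor gene, had 832 to 1109 against 1427 to 1713 normalized counts (-0.69, edgeR adjusted p = 0.0418), and Gimap4 is described above. Gimap3, of the same family, was higher in old HSCs, with 577, 446 and 474 against 227, 284 and 235 (1.00, edgeR adjusted p = 0.0215). The calls of Runx3 and Gimap3 were lost in 6 and 5 of the 6 fits without 1 library. In bulk RNA, fewer cells of a type and less RNA per cell cannot be told apart.

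Markers of other cell types that the sorted population could hold were read beside these values. Among 10 markers of T and NK cells in the table, Cd3e, Cd8a, Ncr1 and Gzma were at 0 in all 6 libraries, and among 10 B cell markers Ms4a1, Cd22 and Fcrla were. The summed T and NK cell markers ranged from 349 to 453 normalized counts in old and from 536 to 599 in 5-FU-3 d21 HSCs, and the summed B cell markers from 1224 to 1690 and from 855 to 1253. The summed macrophage and monocyte markers ranged from 80.2 to 249 and from 297 to 433, and those of stromal and endothelial cells, with Bglap at 0 throughout, from 5383 to 7089 and from 6405 to 8172. By edgeR 0 genes of these 4 lists were called, and DESeq2 called 1 in each. At an unadjusted p under 0.05 there were 2 B cell genes and 1 gene in each other list. The medians over 4 B cell, 2 T and NK cell, 4 macrophage and 6 stromal genes tested were 0.80, -0.98, -1.50 and 0.01. Their part in the lymphoid and myeloid differences was not tested. Of 19 myeloid and neutrophil genes, S100a9, a calcium-binding alarmin gene of granulocytes, was lower in old HSCs (378, 338 and 196 against 1224, 1000 and 601 normalized counts, log2 fold change -1.63, edgeR adjusted p = 0.0397, lost in 5 of 6 fits without 1 library). That was 5.26% of the list, against 2.24% of all genes called in either direction. DESeq2 called 7, and 8 had an unadjusted p under 0.05. The sums of the whole list ranged from 8388 to 9228 in old and from 9351 to 9989 in 5-FU-3 d21 HSCs, and its median log2 fold change was -0.77. Of 17 erythroid genes, edgeR called 0 and DESeq2 4, with 7 at an unadjusted p under 0.05 and 0 to 3 called by edgeR under the other settings. Hba-a1, an alpha globin gene, had 56.3, 256 and 1124 normalized counts in the old libraries and 28.4 to 83.8 in 5-FU-3 d21 HSCs, and the sum of the list ranged from 40067 to 55399 against 29718 to 35072, most of it from Car2 (36012 to 48518 against 27423 to 31129).

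By edgeR, the cell cycle genes called between old and 5-FU-3 d21 HSCs were all higher in old HSCs. Of 48 genes of DNA replication and S phase, 2 were called (4.17%, against 2.24% of all genes and 1.62% called higher). A positive log2 fold change was found for 93.8% of the list (median 0.21), against 49.4% of all genes. The genes called were Cdc45 (2169 to 2294 against 1258 to 1530 normalized counts, edgeR adjusted p = 0.0197), a helicase subunit gene, and Uhrf1 (12603 to 14181 against 8470 to 9705, edgeR adjusted p = 0.0276), needed to maintain DNA methylation. Of 46 genes of G2 and mitosis, 91.3% were positive (median 0.30). Birc5, Hmmr and Nek2 were called (6.52%, against 1.62% of all genes called higher). Their log2 fold changes were 0.68, 0.76 and 0.69 (edgeR adjusted p = 0.0276, 0.0374 and 0.0485). Each of these 5 calls was lost in at least 5 of the 6 fits without 1 library. DESeq2 called 10 S phase and 11 G2 and mitosis genes, and 15 and 19 had an unadjusted p under 0.05. In old against PBS-1 d6 HSCs edgeR called 0 genes of either list, with medians of -0.07 and -0.04. There were 1 and 5 genes at an unadjusted p under 0.05, and 0 and 2 with DESeq2. The medians of 5-FU-3 d21 against PBS-3 d6 HSCs were -0.15 and -0.26 (9 and 15 at an unadjusted p under 0.05, 4 and 6 with DESeq2). With the controls exchanged, the medians were 0.03 and 0.03 in old against PBS-3 d6 HSCs. Those of 5-FU-3 d21 against PBS-1 d6 HSCs were -0.28 and -0.33 (25 and 23 at an unadjusted p under 0.05, 11 and 12 with DESeq2). Mki67, the proliferation marker gene, had 1619 to 2014 normalized counts in old, 1297 to 1527 in 5-FU-3 d21, 1213 to 1977 in PBS-3 d6 and 2059 to 2225 in PBS-1 d6 HSCs, and did not pass the test between old and 5-FU-3 d21 HSCs (log2 fold change 0.43, standard error 0.13, edgeR adjusted p = 0.139).

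**Figure D5:**
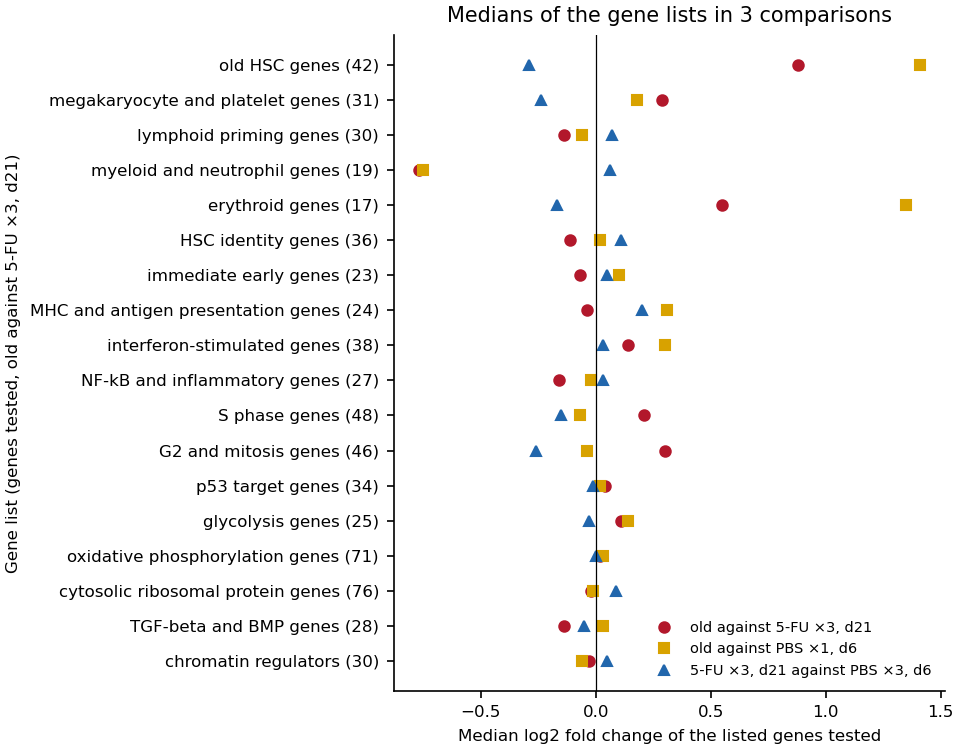
Median log2 fold change (x axis) over the tested genes of 18 lists (y axis, number tested in the direct comparison in parentheses) in old against 5-FU-3 d21, old against PBS-1 d6 and 5-FU-3 d21 against PBS-3 d6 HSCs. Old HSC genes have medians of 0.88, 1.41 and -0.29, and the lists of S phase and of G2 and mitosis are positive in the direct comparison and negative in the other comparisons.

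Of 34 p53 targets, 2 were called (5.88%, against 2.24% of all genes). Plk2, a polo-like kinase gene, was higher in old HSCs (723, 748 and 620 against 93.4, 175 and 98.4 normalized counts, log2 fold change 2.50, standard error 0.25, edgeR adjusted p = 0.00315), with 217 to 354 in the 6 control libraries between them. The tetraspanin gene Cd82 was lower in old HSCs (5453 to 6514 against 8653 to 9047, log2 fold change -0.57, edgeR adjusted p = 0.0197, lost in 5 of 6 fits without 1 library), and Cdkn1a, the p21 gene, overlapped (97 to 197 against 72.4 to 159, edgeR adjusted p = 0.842). Of 38 interferon-stimulated genes, Oas2 was called (566 to 897 against 339 to 387, log2 fold change 1.05, edgeR adjusted p = 0.0271, lost in 5 of 6 fits without 1 library), and the median was 0.14. That was 2.63% of the list, near the 2.24% of all genes. DESeq2 called 4, and 7 had an unadjusted p under 0.05. Of 27 NF-kB and inflammatory genes (median -0.16) edgeR called 0 and DESeq2 2, with 8 at an unadjusted p under 0.05 and 3 called in the single fit of 21 libraries. Of 23 immediate early genes (median -0.07) edgeR called 0 and DESeq2 1, with 7 at an unadjusted p under 0.05.

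The inducible heat shock genes Hspa1a and Hspa1b had the largest fold changes among genes lower in old HSCs by the naming rule. Hspa1a had 801, 381 and 188 normalized counts in old and 2665, 3922 and 3401 in 5-FU-3 d21 HSCs (log2 fold change -2.88, standard error 0.45, edgeR adjusted p = 0.0215), and Hspa1b 904, 493 and 213 against 2966, 4361 and 3787 (-2.80, standard error 0.44, edgeR adjusted p = 0.0223). Old replicate 1 was the highest of the old libraries for both genes, and without it the log2 fold change of Hspa1a was -3.54. Control libraries spanned 524 to 2075 for Hspa1a, and neither old nor 5-FU-3 d21 HSCs were called against either control group. Each call was lost without 5-FU-3 d21 replicate 2, 5-FU-3 d21 replicate 3 or old replicate 2. The genes are near-identical neighbours on chromosome 17, so reads may be split between them. Their promoters are shown because they are alike (296 of 300 bases, from RefSeq on GRCm38.p6, minus strand, 250 bases before to 50 after the start), with the heat shock element core GAANNTTC, a motif chosen after the values were seen and read on both strands, in capitals.
Hspa1a, chr17:34972107-34972406: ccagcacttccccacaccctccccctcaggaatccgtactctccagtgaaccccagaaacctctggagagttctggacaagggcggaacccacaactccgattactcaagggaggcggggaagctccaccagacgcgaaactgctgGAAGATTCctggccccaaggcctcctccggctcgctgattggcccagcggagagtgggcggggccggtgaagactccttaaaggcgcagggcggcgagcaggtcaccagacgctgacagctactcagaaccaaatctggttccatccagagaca
Hspa1b, chr17:34959189-34959488: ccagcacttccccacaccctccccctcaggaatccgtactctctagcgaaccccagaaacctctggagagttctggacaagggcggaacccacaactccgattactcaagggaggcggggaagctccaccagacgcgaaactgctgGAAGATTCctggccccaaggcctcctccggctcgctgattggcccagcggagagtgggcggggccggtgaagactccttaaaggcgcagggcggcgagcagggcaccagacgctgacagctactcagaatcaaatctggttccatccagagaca

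The core was found on either strand in 7.12% of the 9875 genes tested with a promoter in the table, in 6.92% of 159 genes higher and in 11.3% of 62 genes lower in old HSCs. Hspa1l, the neighbouring testis-type family member, was also lower in old HSCs (60.9 to 87.5 against 294 to 406 normalized counts, log2 fold change -2.13, edgeR adjusted p = 0.00486), although 71.9% of its exonic bases lie opposite Gm10501. The other heat shock genes Hsph1, Dnajb1, Hspa8, Hsp90aa1, Hspd1, Hspe1, Dnaja1, Bag3 and Hsf1, chosen after their values were seen, had log2 fold changes between -0.48 (Bag3) and 0.23 (Hspd1), with edgeR adjusted p from 0.149 to 0.942.

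Among the 12 genes with the largest rise in old over 5-FU-3 d21 HSCs by the naming rule, 10 had no count in any 5-FU-3 d21 library. These 10 passed the filter on low expression only through their counts in old HSCs. Fyb2, an adaptor protein gene of T cells and platelets, had 229, 144 and 433 normalized counts in old HSCs and 0 in all 9 libraries of the other 3 groups. Against the floor of 3 counts per library it was at least 82.5-fold higher than in 5-FU-3 d21 HSCs (edgeR adjusted p = 0.00573). Gabra4, a GABA receptor subunit gene, was likewise at 0 in those 9 libraries and had 89.8, 356 and 275 in old HSCs, which was at least 73.9-fold higher (edgeR adjusted p = 0.0109), and Limch1, an actomyosin regulator gene, had 152, 110 and 142 in old HSCs, at least 41.4-fold higher (edgeR adjusted p = 0.00509), with 1.02 in a single PBS-3 d6 library. Old HSCs were the group with counts in all 3 libraries for these genes.

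For the other genes of this kind the controls were not empty. Aldh3a1, an aldehyde dehydrogenase gene, had 127, 155 and 180 normalized counts in old HSCs, 0 in 5-FU-3 d21 HSCs and up to 73.1 in PBS-3 d6 HSCs (at least 47.3-fold higher in old than in 5-FU-3 d21 HSCs, edgeR adjusted p = 0.00422). Pmp22, a myelin and junction protein gene, had 102, 213 and 339 in old HSCs and up to 108 in PBS-1 d6 HSCs (at least 67-fold higher, edgeR adjusted p = 0.00802), and Ntf3, a neurotrophin gene, 164, 130 and 89.3 and up to 26.7 in a control (at least 39.3-fold higher, edgeR adjusted p = 0.0067). Abi3bp, Prom1, Bace2 and Psg16 were at least 68.2-, 61.3-, 46.7- and 41.3-fold higher than in 5-FU-3 d21 HSCs. All but Fyb2 of these 10 genes lost their call without old replicate 2. In all, the call of Prom1 was lost in 5 of the 6 fits without 1 library, that of Abi3bp in 4 and those of Bace2 and Psg16 in 2. For Abi3bp, Prom1, Bace2 and Psg16 a single old library carried much of the value, and the bounds fell to 38.6, 25.8, 25.3 and 26.1 without old replicate 2, 1, 3 and 3. Prom1, the CD133 gene, had 430, 101 and 67.2 normalized counts in old HSCs and 0 to 177 in the controls. Dzank1, a gene of unsettled function, had 71.9, 126 and 183 in old HSCs and 1.07, 0 and 0 in 5-FU-3 d21 HSCs, which was 385 counts against 1 (ratio 357, 95% exact counting interval 63.6 to 14125, edgeR adjusted p = 0.00552, lost without old replicate 2), and PBS-1 d6 HSCs had 42.6 to 169. Dzank1 too passed the filter on low expression only through its counts in old HSCs. Its interval pools the libraries of each group and leaves out the spread between them.

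Receptor genes of the TGF-beta and BMP pathway, which restrains HSC division, were called in both directions. Of 28 genes of the list, 2 were higher and 2 were lower in old HSCs (14.3%, against 2.24% of all genes), with a median of -0.14. Bmpr1a, a type I BMP receptor gene, had 263, 361 and 208 normalized counts in old HSCs and 0, 2.1 and 0 in 5-FU-3 d21 HSCs. This corresponded to 851 counts against 2, a ratio of 394 (95% exact counting interval 109 to 3261), with an edgeR adjusted p = 0.00161, and the controls had 0 to 70.2. Both counts lay in 5-FU-3 d21 replicate 2, without which the group was at 0. Bmpr1a, counted among the 2 members higher, therefore passed the filter on low expression only through its counts in old HSCs. The interval pools the libraries of each group and leaves out the spread between them. Tgfbr3, the betaglycan gene, had 1260 to 1453 against 1970 to 2056 normalized counts (log2 fold change -0.55, edgeR adjusted p = 0.0319), and the repressor gene Tgif1 4409 to 5218 against 6312 to 6916 (-0.47, edgeR adjusted p = 0.0473). The fourth gene was Thbs1, described above. The calls of Tgfbr3 and Tgif1 were lost in each of the 6 fits without 1 library.

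Further genes lower in old HSCs by the rule were Cyp27a1, Gna12, Krt80, Ms4a6c and Dvl1. Cyp27a1, a sterol hydroxylase gene, had 55.1, 38.3 and 42 normalized counts in old HSCs and 183, 228 and 178 in 5-FU-3 d21 HSCs (log2 fold change -2.12, standard error 0.3, edgeR adjusted p = 0.0147), with 81.7 to 169 in the 6 control libraries. Dvl1, a WNT signalling adaptor gene, had 628, 683 and 504 against 2300, 1804 and 1335 (-1.59, standard error 0.21, edgeR adjusted p = 0.0109), with 1066 to 2527 in the controls. For both genes all old libraries lay below all others, and 5-FU-3 d21 HSCs were not called against PBS-3 d6 HSCs (log2 fold changes 0.66 and -0.12, edgeR adjusted p = 0.401 and 0.883). The call of Dvl1 between old and 5-FU-3 d21 HSCs was lost without old replicate 2, and that of Cyp27a1 in 3 of 6 fits without 1 library. Gna12, Krt80 and Ms4a6c had log2 fold changes of -2.01, -1.85 and -1.62 (edgeR adjusted p = 0.0494, 0.0485 and 0.0189), and their calls were lost in 5, 6 and 2 of the 6 fits. Of the exonic bases of Ms4a6c, 53.1% lie opposite BE692007.

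Of 71 genes of oxidative phosphorylation (median 0.02) edgeR called 0 and DESeq2 3, with 3 at an unadjusted p under 0.05 and 3 called in the single fit of 21 libraries. Of 76 genes of the cytosolic ribosome (median -0.02) edgeR and DESeq2 called 0, with 1 at an unadjusted p under 0.05 and 1 called in the single fit. Of 25 glycolysis genes, Ldha, encoding lactate dehydrogenase A, was higher in old than in 5-FU-3 d21 HSCs (30583, 28651 and 29041 against 22732, 21518 and 19369 normalized counts, log2 fold change 0.47, standard error 0.077, edgeR adjusted p = 0.0252, lost in 5 of 6 fits without 1 library), with 26336 to 27251 in PBS-3 d6 and 21373 to 22755 in PBS-1 d6 HSCs. That was 4% of the list, against 2.24% of all genes called in either direction. DESeq2 called 3, and 8 had an unadjusted p under 0.05. Pfkfb3, a regulator gene of phosphofructokinase, had 5072 to 6836 against 4705 to 5394 (0.25, standard error 0.12, edgeR adjusted p = 0.383), and Prmt1, encoding an arginine methyltransferase, 3256 to 3347 against 2928 to 3452 (0.08, edgeR adjusted p = 0.783). Among 36 HSC identity genes, 2 were higher in old HSCs (5.56%, against 1.62% of all genes called higher). One was the imprinted gene Ndn (683 to 746 against 361 to 488, edgeR adjusted p = 0.0276, lost in 5 of 6 fits without 1 library). The log2 fold change was positive for 33.3% of the list, against 49.4% of all genes, with a median of -0.11. DESeq2 called 8, and 10 had an unadjusted p under 0.05. Kit, encoding c-Kit, had 28235 to 31616 normalized counts in old and 30542 to 37602 in 5-FU-3 d21 HSCs (-0.19, edgeR adjusted p = 0.368). Ly6a, encoding Sca-1, had 11250 to 12129 and 12621 to 17451 without overlap (-0.38, edgeR adjusted p = 0.168). The controls had 10837 to 12067 normalized counts of Ly6a in PBS-3 d6 HSCs, at the level of old HSCs (log2 fold change 0.01, edgeR adjusted p = 0.99), and 7291 to 8035 in PBS-1 d6 HSCs. Among 30 chromatin regulators, Asxl1, a Polycomb-associated gene, was lower in old HSCs (679 to 745 against 991 to 1315, log2 fold change -0.73, edgeR adjusted p = 0.0276, lost in 5 of 6 fits without 1 library). That was 3.33% of the list, against 2.24% of all genes called in either direction. DESeq2 called 2, and 6 had an unadjusted p under 0.05.

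Promoter motifs were counted as a description of the genes called. The GATA motif AGATAA, read on both strands, was found in the promoters of 8.04% of all genes tested, 11.9% of 159 genes higher and 12.9% of 62 genes lower in old HSCs, and 15.6% of 32 old HSC genes. The AP-1 motif TGACTCA was found in 4.44%, 7.55%, 6.45% and 12.5%, and the CCAAT box in 43.4%, 50.9%, 43.5% and 56.2%. The E-box CACGTG was found in 11.7%, 8.18%, 8.06% and 6.25%, and the CRE TGACGTCA in 3.62%, 2.52%, 1.61% and 0%. The interferon-stimulated response element was found in 3.94%, 7.55%, 1.61% and 6.25%, and the metal response element core TGCNCNC in 63.9%, 64.8%, 77.4% and 65.6%. The smallest of these groups holds 32 promoters, and the shares were not tested.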

How the data were processed

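RNA-seq libraries of sorted bone marrow HSCs were made by the authors with SMART-Seq v4 and Nextera XT, which do not mark the strand, so reads of a gene and its antisense partner cannot be told apart. The submitters' processing notes name TopHat2 2.0.13, Cufflinks 2.2.1, Cuffdiff and the mm10 genome. The authors deposited a table of whole-number counts per gene symbol for 21 libraries, and how these counts were made is not given in the sources used here. The 21000 symbols were matched to GENCODE vM21 (20499) or RefSeq (501), and 20021 were autosomal. No column of the table was left unassigned (0 columns).

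Quasi-likelihood F tests were run in edgeR 4.0.16 (R 4.3.3) on the counts as deposited, after its filter on low expression and TMM scaling, with one fit per pair of groups. P-values were adjusted by Benjamini-Hochberg over all genes on all chromosomes, and 0.05 was the threshold. Of 12700 genes tested in the direct comparison, 285 were called, with 7 on X and 4 on Y, and only autosomal genes were reported. With 3 libraries against 3, an exact two-sided permutation test of a single value cannot give a p below 0.1 (20 assignments), so no such p is given. On simulated counts for 12525 genes of the direct comparison, edgeR recovered 72% of genes changed by a log2 fold of 1 and 86% of those changed by 2, with 5.95% false calls, and DESeq2 1.42.0 recovered 77% and 96% with 20.3% false calls. These counts were drawn from a negative binomial with dispersions estimated by edgeR, and the changed genes were taken from those above a minimum mean count. The simulation therefore cannot decide between the 2 tests for the real counts. Total counts and the floor of 3 counts per library are given with the results. Intervals were computed on counts pooled over the libraries of each group. They cover counting error only and not the spread between libraries. Reads carried no molecular identifiers.

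Libraries were grouped by their labels, and those of a group come from separate experiments according to the study's methods. Replicates of a group differed by 16.8 to 37.2 times the sampling variance. Deviations of libraries with the same replicate number correlated between -0.0596 and 0.0214, so the numbers were not taken to pair the libraries.

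Genes were named by rule: the 12 autosomal genes called with the largest log2 fold change in each direction, with no overlap and at least 100 normalized counts in the higher group, the called members with the lowest p of each list, all called old HSC genes, genes called in the same direction in the comparisons with separate controls, and Slamf1, Procr, Kit, Ly6a, Cd48, Pfkfb3, Prmt1 and Mki67. Meis1, Selp, Mdga1, Nupr1, Mt1, H2-Eb1, H2-K1, Cdkn1a and Trpc6 were named after their values were seen. The groups, gene lists and rules were chosen with earlier results of these data known. Promoters spanned 250 bases before to 50 after the start (RefSeq, GRCm38.p6) and were matched for 9875 of 12253 genes. The alternatives tried were other scalings, DESeq2, other filters, a replicate block, a single fit of all libraries, a fit of autosomal genes alone, exchanged controls and leaving out each library. The values of 1 called list member are not reported here.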

Additional observations from a re-analysis of the deposited data

How the results depend on the processing

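The direct comparison called 274 genes and gave 945 with DESeq2, 584 with all 21 libraries in a single fit and 58 to 171 with 1 library left out. For old against PBS-1 d6 HSCs (231 genes) these were 783 with DESeq2 and 103 to 140 with 1 library left out, and for old against PBS-3 d6 HSCs (119) they were 548 and 16 to 70. For 5-FU-3 d21 against PBS-3 d6 HSCs (6 genes) the number was 3 with relative log expression size factors, 15 with library size alone, 575 with DESeq2, 22 with at least 10 counts in every library, 182 in the single fit and 1 to 4 with 1 library left out. For 5-FU-3 d21 against PBS-1 d6 HSCs (80) it was 637, 201 in the single fit and 4 to 33. Genes called in the same direction with separate controls numbered 2, and 49 with DESeq2, 23 in the single fit, 6 with controls exchanged and 1 to 2 with 1 library left out. Of 24 genes named by size, 12 were called with at least 10 counts in every library, which removes genes at 0 in a group, and 6 to 20 with 1 library left out. List members called numbered 47, and 107 with DESeq2, 77 in the single fit and 17 to 27 with 1 library left out, and old HSC genes numbered 22, and 11 to 17. Except for the removal of samples or genes, the cause of these shifts was not tested.

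With the replicate number as a block, the numbers were 106 for the direct comparison, 95 and 26 for old against PBS-1 d6 and PBS-3 d6 HSCs, 0 and 8 for 5-FU-3 d21 against PBS-3 d6 and PBS-1 d6 HSCs, 0 shared genes, 21 list members and 13 old HSC genes. The libraries share only a number, so the block does not stand for a pairing.

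Over 67 named and list genes, 925 values under the alternatives were computed. Of these, 683 kept their direction and side of the threshold, 242 (from 47 genes) kept their direction and lost the threshold, and 0 reversed. Past the threshold under every alternative were 20 genes. Depth limits the genes at 0, for which only bounds can be given.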
